A study of Mus musculus with 36 samples.

Results

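The 10 genes described here are expressed by microglia and the other macrophages of the brain. They were taken by name, as rows of both count tables, from 46603 genes in all, and every one had reads in each of the 18 libraries. RNA was sequenced from the cortex (E12.5) or the telencephalic vesicles (E10.5) of C57Bl/6J mouse embryos that carried different alleles of Chd8, which encodes a chromatin remodeller. At E12.5, 4 genotypes were compared with n = 3 single embryos each: Chd8 +/+, Chd8 +/- with 1 null allele, Chd8 neo/neo with 2 copies of an allele that holds a neo selection cassette in an intron and yields less Chd8, and Chd8 neo/- with 1 neo and 1 null allele. At E10.5, Sox1-Cre; Chd8 f/f conditional knockouts (cKO) were compared with controls (Ctrl) labelled as a combination of Chd8 f/f and Chd8 f/+, with n = 3 libraries each and 2 embryos pooled per library, so that all E10.5 groups carried floxed alleles. Sox1-Cre recombines in the neural lineage, whereas the E12.5 alleles were carried by every cell of the embryo. P-values here measure the spread between libraries.

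Microglia arise from yolk sac progenitors that enter the brain early in embryonic development. Their survival depends on the receptor CSF1R, their lineage on the transcription factor PU.1, and their contact with neurons in part on the receptor CX3CR1. They sense and clear material through complement C1q and through receptors that signal by adaptor proteins with an ITAM motif. In whole tissue, fewer cells of a type and less RNA per cell cannot be told apart.

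Total counts per library lay between 38774591 and 68488879. Chd8 itself, given in CPM (each library's counts scaled to the same total), stood at 238, 236 and 240 in Chd8 +/+, 166, 171 and 165 in Chd8 +/-, 214, 203 and 212 in Chd8 neo/neo and 159, 147 and 142 in Chd8 neo/-, and at 161, 165 and 182 in Ctrl against 120, 124 and 115 in cKO. Each mutant library lay below all controls of its stage, but the Chd8 neo/neo libraries lay above every Chd8 +/- library, so Chd8 RNA counted over the whole gene does not place neo/neo below the heterozygote. Such counts do not separate transcripts that splice into the neo cassette from intact ones. The markers of the labelled tissue were high in all groups, with a summed level of 12 forebrain neural genes of 3953 to 4249 CPM in Chd8 +/+ and 1249 to 1542 CPM in Ctrl. The 10 macrophage genes together took up far less, 42.0 to 47.6 CPM in Chd8 +/+ and 29.7 to 36.2 CPM in Ctrl, and the rarest, Aif1, rested on 26 to 52 reads in a library against 384 to 779 for Csf1r. In the Chd8 +/- group replicate 2 had the highest sum of 10 meningeal and mesenchymal genes of all libraries, at 1231 CPM against 599 and 785 CPM in the other two.

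RefSeq promoter sequences (GRCm38.p6, 250 bases before to 50 after the start of transcription) were searched for 6 of the 10 genes. Csf1r, whose level also differed between stages, was left out of the search, and Spi1, C1qa and Tyrobp had no promoter entry. Of the promoters searched, 4 are shown. They belong to genes whose levels differed between stages or genotypes, or, for C1qb, to the neighbour of such a gene. They lie at chr4:136886151-136886450 for C1qb, chr4:136892865-136893164 for C1qc, chr9:120068247-120068546 for Cx3cr1 and chr1:138175256-138175555 for Ptprc, all on the minus strand. Capitals mark GGAAGT or its reverse complement ACTTCC, a short form of the sequence that factors of the ETS family, to which PU.1 belongs, are known to bind.
C1qb: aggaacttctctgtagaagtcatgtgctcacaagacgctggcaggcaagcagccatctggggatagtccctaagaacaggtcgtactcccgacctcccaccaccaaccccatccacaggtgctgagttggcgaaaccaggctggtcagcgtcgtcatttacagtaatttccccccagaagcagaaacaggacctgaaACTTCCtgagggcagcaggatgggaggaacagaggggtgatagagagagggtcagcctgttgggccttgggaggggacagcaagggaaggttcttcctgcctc
C1qc: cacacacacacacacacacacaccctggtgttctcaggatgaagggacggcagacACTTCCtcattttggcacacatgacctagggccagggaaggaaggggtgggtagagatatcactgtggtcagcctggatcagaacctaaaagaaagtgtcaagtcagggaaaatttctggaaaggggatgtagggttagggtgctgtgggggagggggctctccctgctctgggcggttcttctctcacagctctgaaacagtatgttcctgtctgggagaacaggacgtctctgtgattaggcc
Cx3cr1: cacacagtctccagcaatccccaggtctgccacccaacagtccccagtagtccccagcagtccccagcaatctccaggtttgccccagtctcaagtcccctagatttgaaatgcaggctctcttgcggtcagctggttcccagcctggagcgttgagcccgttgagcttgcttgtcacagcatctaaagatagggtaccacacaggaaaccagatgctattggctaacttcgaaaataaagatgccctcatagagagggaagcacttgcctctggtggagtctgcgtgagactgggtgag
Ptprc: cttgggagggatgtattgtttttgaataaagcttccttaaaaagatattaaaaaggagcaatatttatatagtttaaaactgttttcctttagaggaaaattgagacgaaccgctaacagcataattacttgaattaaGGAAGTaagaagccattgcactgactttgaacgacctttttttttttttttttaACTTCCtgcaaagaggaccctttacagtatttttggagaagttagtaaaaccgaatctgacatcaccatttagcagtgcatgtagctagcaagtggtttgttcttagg
On either strand, GGAAGT was found 1 time in C1qb, 1 time in C1qc, 2 times in the Ptprc promoter shown and 0 times in Cx3cr1. Of all 32851 promoters of that length, 23.8% hold it. The related hexamer GAGGAA, held by 28.3% of promoters, was found 1 time each in C1qb, C1qc and the Ptprc promoter shown. In C1qc it overlaps the GGAAGT match. Neither hexamer was found in the promoter of Cx3cr1 or Fcer1g, and Aif1 held GAGGAA alone. Another Ptprc promoter, at chr1:138175077-138175376 and overlapping the one shown, held GGAAGT 1 time and GAGGAA 0 times.

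The genes lie on 7 chromosomes of GRCm38, and 3 of them form a cluster. C1qb (4:136880129-136886187), C1qc (4:136889804-136893065) and C1qa (4:136895917-136898803) sit side by side on the minus strand of chromosome 4, with 3616 and 2851 bases between them, and encode the chains that assemble into complement C1q. Ptprc (1:138062861-138175708) and Fcer1g (1:171229572-171234365) lie on chromosome 1, Spi1 (2:91082390-91115756) on chromosome 2, Tyrobp (7:30413788-30417577) on chromosome 7, Cx3cr1 (9:119901616-120068283) on chromosome 9, Aif1 (17:35170991-35176068) on chromosome 17 and Csf1r (18:61105572-61132149) on chromosome 18. Csf1r shares 871 bases of exon with Hmgxb3 on the opposite strand, where reads overlapping both genes are left uncounted under the settings of the E12.5 table, and the other nine share no exon base with another gene.

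Levels between genes were compared per kilobase of exon. In Chd8 +/+, C1qb was the highest at 5.22 ± 0.639 CPM per kb (SD, n = 3). C1qa at 3.85 ± 0.277, Tyrobp at 3.77 ± 0.773, Fcer1g at 3.42 ± 0.286, C1qc at 3.01 ± 0.638 and Csf1r at 2.96 ± 0.172 followed, and neighbours from C1qa to Csf1r lay within their SDs of each other. Cx3cr1 stood lower at 1.75 ± 0.119, then Spi1 at 0.464 ± 0.0487 and Aif1 at 0.389 ± 0.0381, whose SDs met, and Ptprc was the lowest at 0.0949 ± 0.0135. The rank of Ptprc depends on its exon length of 18313 bases, the longest of the 10. Before division by length it stood higher, at a mean of 1.74 CPM against 1.25 for Spi1 and 0.596 for Aif1. In Ctrl these means were 3.53, 1.72 and 0.611 CPM. In Ctrl at E10.5 the order was C1qb, Tyrobp, Fcer1g, Csf1r, C1qc, Cx3cr1, C1qa, Spi1, Aif1 and Ptprc, from 4.61 ± 0.680 to 0.193 ± 0.0176 CPM per kb, so C1qa stood below Cx3cr1 there and above it at E12.5. Of these neighbours at E10.5, only Fcer1g and Csf1r, C1qa and Spi1, Spi1 and Aif1, and Aif1 and Ptprc lay further apart than their SDs.

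**Figure D1:**
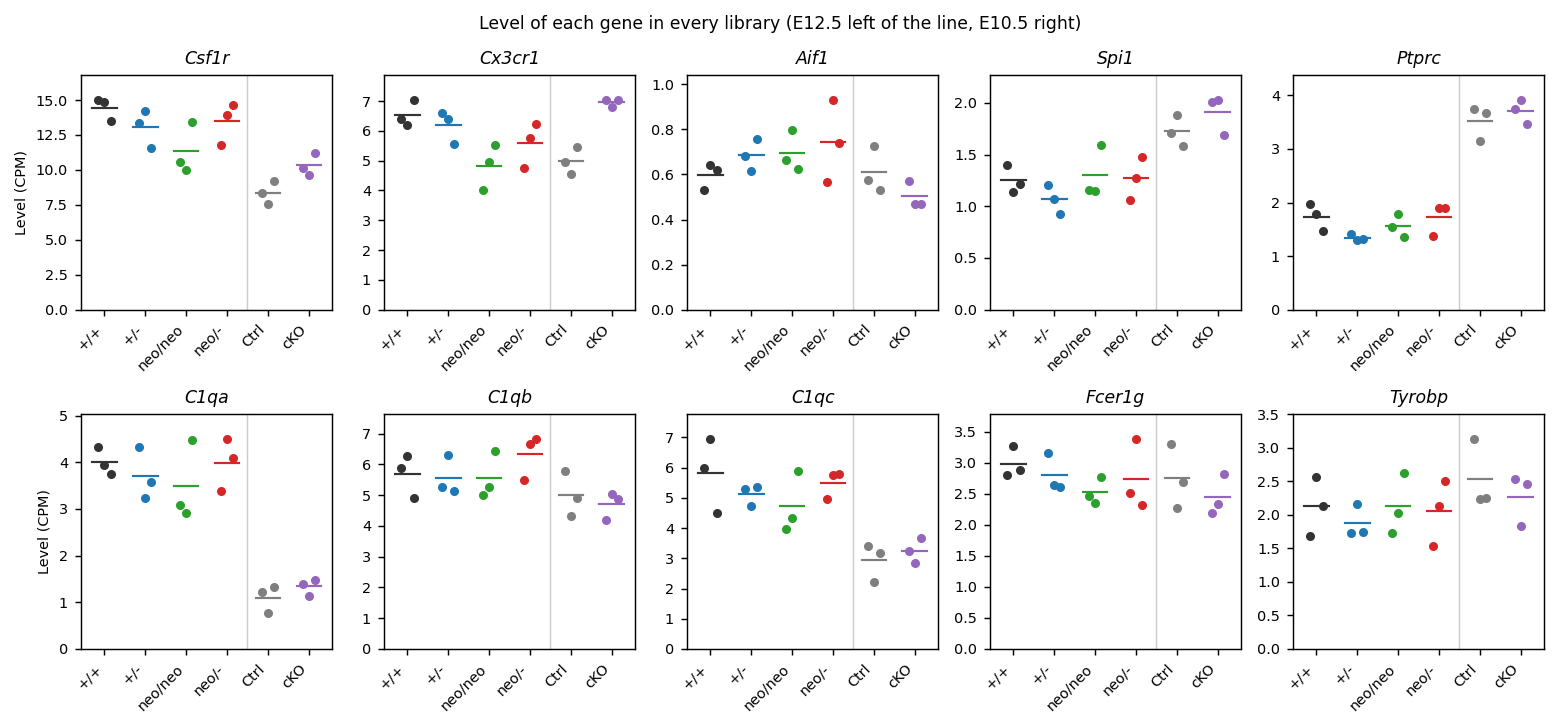
Level in CPM (vertical axis) of each of the 10 genes in every library, by genotype (horizontal axis), with a line at the mean of each group. From Ctrl to Chd8 +/+, C1qa has the largest rise in log2 fold change and Ptprc the largest fall, and within each stage most groups overlap.

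The first question was whether lowering Chd8 in all cells changed these genes at E12.5. None of the 10 was called in any of the 6 comparisons between the 4 genotypes (edgeR quasi-likelihood test, adjusted p under 0.05 over all 18810 genes tested). In Chd8 +/- against Chd8 +/+, 0.0213% of all genes were called, and 0 of the 10. In Chd8 neo/neo against Chd8 +/+ the share was 8.16% of all genes, in Chd8 neo/- against Chd8 +/+ 11.5%, in Chd8 neo/neo against Chd8 +/- 5.28%, in Chd8 neo/- against Chd8 +/- 5.43%, and in Chd8 neo/- against Chd8 neo/neo 0.0159%. At an unadjusted p under 0.05 the genes numbered 0, 2, 0, 1, 0 and 1 of 10 in these 6 comparisons, beside 6.33%, 25.2%, 26.5%, 23.2%, 22.5% and 8.43% of all genes. DESeq2 gave an adjusted p for 8 of the 10 in Chd8 neo/neo against Chd8 +/+ and called 2 of them, beside 2276 of all 14205 genes that had one. In the other five it called 0 of the 7 to 10 genes that had one. The 3 comparisons with Chd8 +/+ share its libraries.

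The receptors came closest. Csf1r, the receptor for CSF1 and IL-34, had 15.02, 14.8 and 13.5 CPM in Chd8 +/+, 13.4, 14.2 and 11.6 in Chd8 +/-, 10.6, 9.998 and 13.4 in Chd8 neo/neo and 11.8, 13.96 and 14.6 in Chd8 neo/-. The 3 neo/neo libraries all lay below the 3 of Chd8 +/+, though replicate 3 only just did. The difference was not called (log2 fold change -0.35, SE 0.12, adjusted p = 0.0763, 95% interval -0.60 to -0.10). Cx3cr1, the receptor for the neuronal chemokine CX3CL1, had 6.40, 6.19 and 7.04 CPM in Chd8 +/+, 6.59, 6.41 and 5.56 in Chd8 +/-, 4.01, 4.94 and 5.52 in Chd8 neo/neo and 4.76, 5.75 and 6.24 in Chd8 neo/-. Here too the neo/neo libraries lay below all those of Chd8 +/+, and also below all those of Chd8 +/-. Its adjusted p was just above the threshold against Chd8 +/+ (log2 fold change -0.44, SE 0.13, adjusted p = 0.0521, 95% interval -0.71 to -0.16) and further above it against Chd8 +/- (log2 fold change -0.35, SE 0.13, adjusted p = 0.120). Without neo/neo replicate 3, the edgeR fit called both, with Csf1r at -0.50 (adjusted p = 0.00774) and Cx3cr1 at -0.55 (adjusted p = 0.0171), and C1qc as well. That fit called 2605 of all 19045 genes it tested, against 8.16% of genes in the main fit. Leaving out any other single library of these groups called neither receptor, with adjusted p up to 0.260 for Csf1r and 0.176 for Cx3cr1. In Chd8 neo/- the same 2 genes differed less from Chd8 +/+, with log2 fold changes of -0.10 and -0.23 (adjusted p = 0.639 and 0.284). Between Chd8 neo/- and Chd8 neo/neo they were 0.25 and 0.21 (adjusted p = 0.590 and 0.674), so the 2 hypomorphs were not shown to differ. The labels name no pairs of libraries. Deviations from group means correlated weakly between same-numbered libraries of Chd8 neo/neo and Chd8 +/- (r from 0.108 to 0.198). With the replicate number as a block, 572 instead of 994 genes were called in that comparison, with 0 of the 10 in both fits.

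Ptprc encodes CD45, a phosphatase carried by white blood cells. It had 1.96, 1.78 and 1.47 CPM in Chd8 +/+ and 1.41, 1.30 and 1.33 in Chd8 +/-, which did not overlap, and 1.54, 1.79 and 1.36 in Chd8 neo/neo and 1.37, 1.90 and 1.90 in Chd8 neo/-, which did. It was not called in Chd8 +/- (log2 fold change -0.37, SE 0.18, adjusted p = 0.797). It was the 1 gene of 10 whose libraries did not overlap there, beside 11.4% of all genes, 5.93% on the lower side. For Chd8 neo/neo against Chd8 +/+ the number was 3 of 10 (Csf1r, Cx3cr1 and Fcer1g, all lower) beside 25.9% of all genes, 13.6% on the lower side, and for Chd8 neo/- it was 0 of 10 beside 33.4%. Against Chd8 +/-, it was 1 of 10 in Chd8 neo/neo (Cx3cr1, lower) beside 25.5%, 12.1% on the lower side, and 0 of 10 in Chd8 neo/- beside 30.8%, and between the hypomorphs 0 of 10 beside 15.2%.

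Spi1 encodes PU.1. Its level ran from 0.926 to 1.59 CPM over the 12 libraries, and its log2 fold changes against Chd8 +/+ were -0.24, 0.05 and 0.02 for the heterozygote, neo/neo and neo/- in that order, with standard errors of 0.19. Aif1, which encodes the actin-binding protein IBA1 used to stain microglia, was the gene with the fewest reads, at 0.530 to 0.932 CPM. It was above Chd8 +/+ on average in all 3 other genotypes (0.21, 0.23 and 0.34), within standard errors of 0.22 to 0.23 that give intervals reaching from -0.28 to 0.80. They leave a change of that size undecided.

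The C1q chains overlapped in every comparison at E12.5. C1qa had 4.32, 3.94 and 3.76 CPM in Chd8 +/+, 4.32, 3.24 and 3.58 in Chd8 +/-, 3.08, 2.92 and 4.48 in Chd8 neo/neo and 3.39, 4.50 and 4.09 in Chd8 neo/-. C1qb had 5.87, 6.26 and 4.91, then 5.26, 6.32 and 5.14, 5.002, 5.27 and 6.43 and 5.50, 6.68 and 6.83 CPM in the same groups. C1qc had 5.99, 6.95 and 4.50, then 5.28, 4.75 and 5.37, 3.96, 4.33 and 5.88 and 4.97, 5.75 and 5.77 CPM. In all 3, as in Csf1r and Cx3cr1, neo/neo replicate 3 was the highest of its group. The log2 fold changes against Chd8 +/+ were -0.20, -0.03 and -0.29 in Chd8 neo/neo (adjusted p = 0.508, 0.933 and 0.277), between -0.18 and -0.03 in Chd8 +/- and between -0.08 and 0.16 in Chd8 neo/-. Fcer1g and Tyrobp encode the ITAM adaptors FcRγ and DAP12. Fcer1g had 2.81, 3.27 and 2.88 CPM in Chd8 +/+, 3.16, 2.65 and 2.61 in Chd8 +/-, 2.47, 2.35 and 2.78 in Chd8 neo/neo and 2.52, 3.39 and 2.32 in Chd8 neo/-. Its neo/neo libraries lay below those of Chd8 +/+ by a small margin, and the difference was not called (log2 fold change -0.24, SE 0.15, adjusted p = 0.362). Tyrobp had 1.69, 2.56 and 2.13 CPM in Chd8 +/+ and 1.73, 2.02 and 2.63 in Chd8 neo/neo, which overlapped throughout (log2 fold change 0.01, SE 0.21, adjusted p = 0.983).

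Over the 10 genes the median log2 fold change was -0.13 for Chd8 +/-, -0.17 for Chd8 neo/neo, and for Chd8 neo/- -0.02, against 0.0012, 0.0053 and 0.0011 over all genes tested. In Chd8 +/- 9 of 10 were below 0, and in each hypomorph 7 of 10 were. The median moved with single libraries. For Chd8 +/- it was -0.07 without Chd8 +/+ replicate 2 and -0.08 without Chd8 +/- replicate 3, and for Chd8 neo/- it ran from -0.10 without neo/- replicate 2 to 0.11 without neo/- replicate 1. The reach of all 30 intervals, from -0.75 to 0.80, shows what sizes these libraries left undecided.

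**Figure D2:**
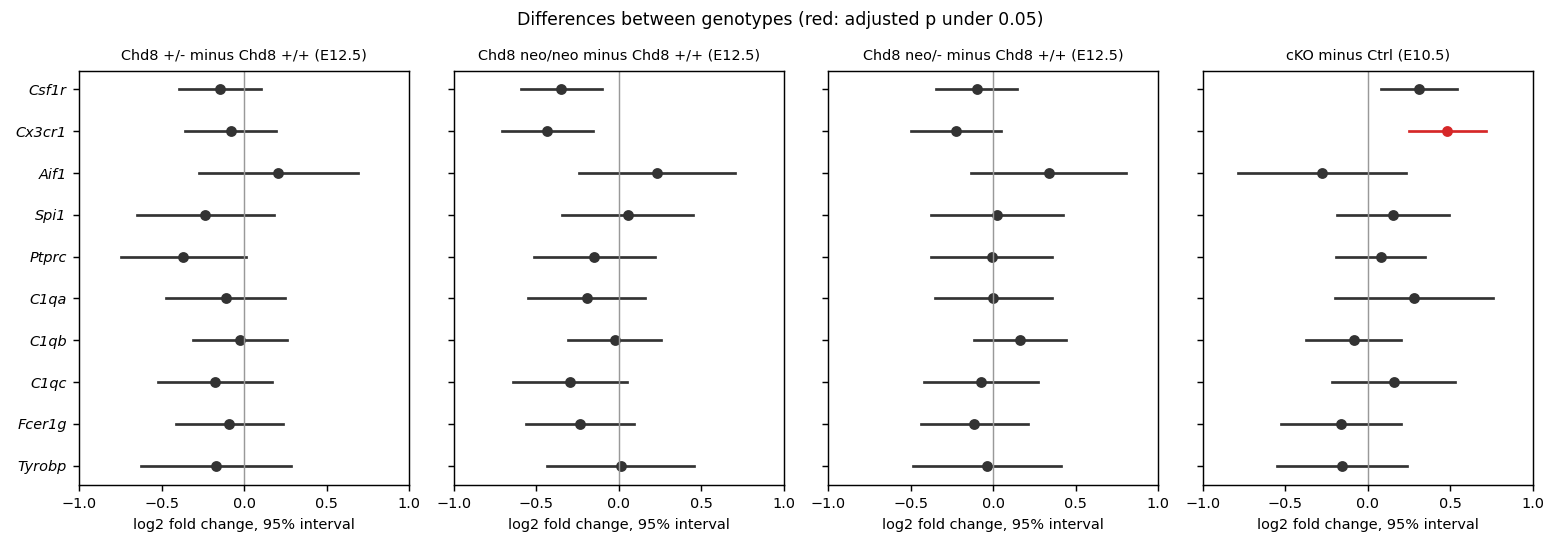
Log2 fold change (horizontal axis) of the 10 genes with 95% intervals in 4 comparisons, from edgeR with n = 3 libraries per group; red marks an adjusted p under 0.05. Cx3cr1 in cKO is the only one past the threshold, and Csf1r and Cx3cr1 lie below 0 in Chd8 neo/neo and above 0 in cKO.

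The second question was whether removing Chd8 from the neural lineage changed the same genes at E10.5. Cx3cr1 rose in cKO. It had 4.95, 4.55 and 5.45 CPM in Ctrl and 7.02, 6.81 and 7.02 CPM in cKO, with means of 4.98 ± 0.453 and 6.95 ± 0.124 (SD, n = 3), and the groups did not overlap (log2 fold change 0.48, SE 0.11, adjusted p = 0.0162, 95% interval 0.25 to 0.71). This was 1 of 10 genes called, beside 11.4% of all 18435 tested, 5.75% on the higher side. Without cKO replicate 2 or replicate 3 the value stayed near 0.50 and 0.47 but the adjusted p was 0.071 and 0.0599. Csf1r also had groups that did not overlap, 8.31, 7.53 and 9.18 CPM in Ctrl and 10.2, 9.60 and 11.2 CPM in cKO, and missed the threshold (log2 fold change 0.31, SE 0.10, adjusted p = 0.0808), which DESeq2 passed (adjusted p = 0.049). Non-overlap was seen in 2 of 10 genes and in 32.1% of all genes, 15.5% with cKO higher.

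The remaining genes overlapped between Ctrl and cKO. Spi1 had 1.71, 1.88 and 1.58 CPM in Ctrl and 2.01, 2.03 and 1.69 in cKO, with a log2 fold change of 0.15. Ptprc had 3.74, 3.16 and 3.68 CPM in Ctrl and 3.75, 3.92 and 3.47 in cKO, with a log2 fold change of 0.08. Of the C1q chains, C1qa and C1qc were higher on average in cKO and C1qb was lower, none of them called. C1qa had 1.21, 0.764 and 1.33 CPM in Ctrl and 1.39, 1.14 and 1.48 in cKO. C1qb had 5.80, 4.33 and 4.90 in Ctrl and 4.19, 5.03 and 4.89 in cKO, and C1qc had 3.42, 2.21 and 3.16 and 3.23, 2.86 and 3.67. Their log2 fold changes were 0.28, -0.09 and 0.16 (adjusted p = 0.444, 0.722 and 0.602). Aif1 at -0.28, Fcer1g at -0.16 and Tyrobp at -0.16 were lower on average, with adjusted p = 0.478, 0.571 and 0.621. The median over the 10 was 0.11, against -0.0019 over all genes, but 0.0053 without Ctrl replicate 2 and 0.07 without cKO replicate 2. No test was made of whether the Cx3cr1 values of cKO and of Chd8 neo/neo differ, since stage, tissue and controls differ between them.

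Markers of other cell types moved in the same cKO libraries. The sum of 10 meningeal and mesenchymal genes was 832 to 913 CPM in Ctrl and 1020 to 1203 CPM in cKO. Of these, 3 of 10 were called higher (Col1a2, Col3a1 and Pdgfra, in 9, 6 and 10 of 10 alternatives), beside 5.75% of all genes. Of the mural genes Pdgfrb rose by 0.44 (1 of 6 tested) and of the endothelial genes Cdh5 by 0.25 (1 of 10), beside the same share. They were kept in 7 and 5 of 10 alternatives. The endothelial sum was 298 to 310 CPM in Ctrl and 307 to 358 CPM in cKO, and the mural sum 67.1 to 73.8 and 80.7 to 95.2 CPM. Their part in the Cx3cr1 value was not tested.

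**Figure D3:**
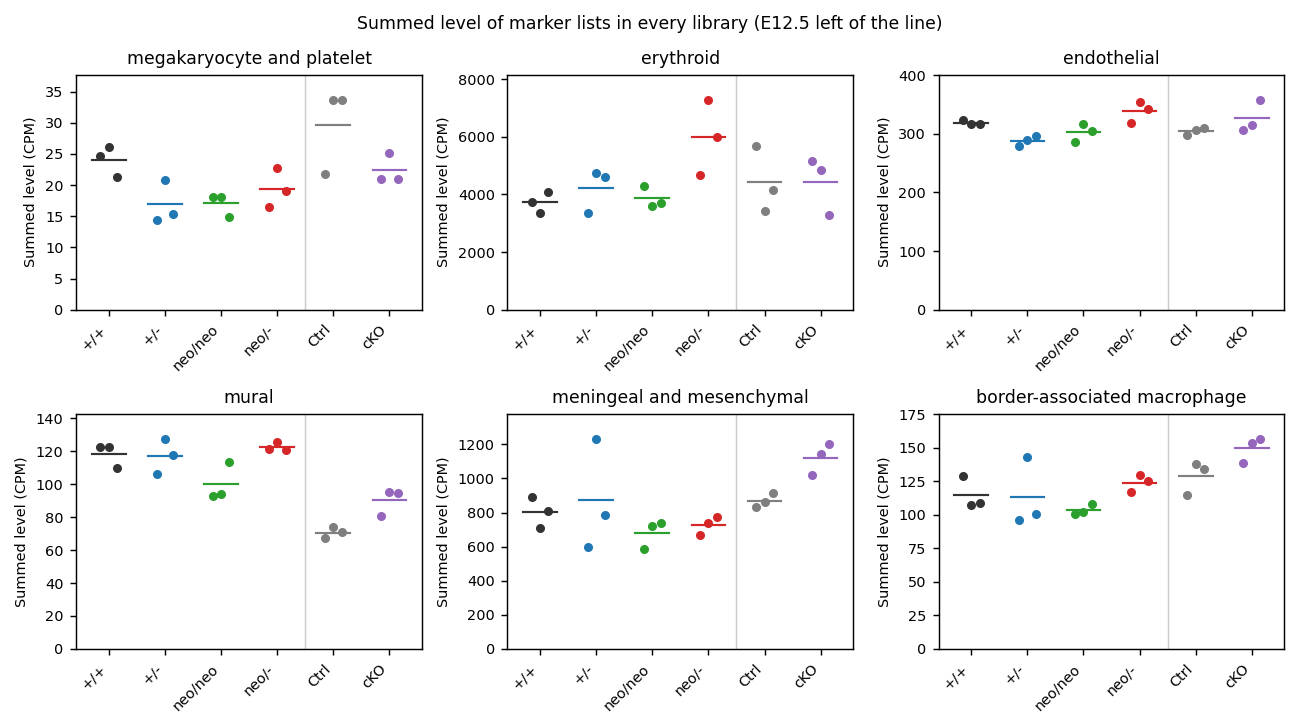
Summed level in CPM (vertical axis) of 6 marker lists in every library, by genotype (horizontal axis), with a line at the mean of each group. The meningeal and mesenchymal sum is higher in all cKO than in all Ctrl libraries, the erythroid sum is higher in all Chd8 neo/- than in all Chd8 +/+ libraries, and Chd8 +/- replicate 2 stands above the other E12.5 libraries in the meningeal and mesenchymal sum.

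The largest differences in these genes were between stages. Chd8 +/+ at E12.5 was set against Ctrl at E10.5, where 67.5% of 18580 genes were called, 33.7% higher and 33.8% lower at E12.5. Stage cannot be told apart here from sequencing run, dissection, floxed alleles and the pooling of embryos. 6 of the 10 genes were called, 4 higher and 2 lower at E12.5, and these 6 were also the ones whose groups did not overlap (72.2% of all genes did not, 34.8% higher and 37.3% lower). C1qa rose the most, from 1.21, 0.764 and 1.33 CPM at E10.5 to 4.32, 3.94 and 3.76 CPM at E12.5 (log2 fold change 1.88, SE 0.19, adjusted p = 3.52e-06). C1qc rose from 3.42, 2.21 and 3.16 to 5.99, 6.95 and 4.50 CPM (log2 fold change 1.01, SE 0.19, adjusted p = 0.000558). The third chain of the cluster, C1qb, had 5.80, 4.33 and 4.90 CPM at E10.5 and 5.87, 6.26 and 4.91 CPM at E12.5, and was not called (log2 fold change 0.20, SE 0.14, adjusted p = 0.217).

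The proportion of the C1q transcripts thus differed between the stages. Per kilobase, the ratio of C1qa to C1qb was 0.218, 0.185 and 0.284 in Ctrl, 0.347, 0.237 and 0.317 in cKO and 0.770, 0.658 and 0.801 in Chd8 +/+, and over all libraries it ran from 0.185 to 0.347 at E10.5 and from 0.536 to 0.859 at E12.5, with no overlap. The ratio of C1qc to C1qb ran from 0.288 to 0.435 at E10.5 and from 0.423 to 0.625 at E12.5, where the lowest E12.5 library fell below the highest at E10.5. Within E12.5 the 4 genotypes overlapped in the ratio of C1qa to C1qb. The ratio of C1qc to C1qb was 0.575, 0.625 and 0.517 in Chd8 +/+, 0.566, 0.423 and 0.589 in Chd8 +/-, 0.446, 0.462 and 0.515 in Chd8 neo/neo and 0.510, 0.485 and 0.476 in Chd8 neo/-, so both hypomorphs lay just below Chd8 +/+, which the Chd8 +/- libraries overlapped. These ratios were not tested.

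**Figure D4:**
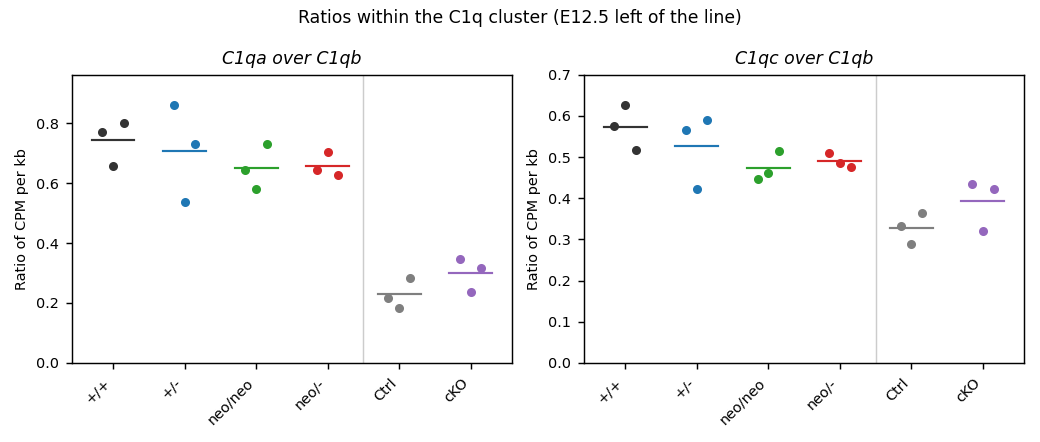
Ratio of the level per kilobase of C1qa (left) and of C1qc (right) to that of C1qb in every library (vertical axis), by genotype (horizontal axis), with a line at the mean of each group. The C1qa ratio is at most 0.347 in the 6 E10.5 libraries and at least 0.536 in the 12 at E12.5.

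Csf1r rose from 8.31, 7.53 and 9.18 CPM at E10.5 to 15.02, 14.8 and 13.5 CPM at E12.5 (log2 fold change 0.81, SE 0.10, adjusted p = 1.44e-05), and Cx3cr1 from 4.95, 4.55 and 5.45 to 6.40, 6.19 and 7.04 CPM (log2 fold change 0.41, SE 0.12, adjusted p = 0.00773). Ptprc went the other way, from 3.74, 3.16 and 3.68 to 1.96, 1.78 and 1.47 CPM (log2 fold change -0.997, SE 0.16, adjusted p = 0.000128). Spi1 fell less, from 1.71, 1.88 and 1.58 to 1.39, 1.14 and 1.22 CPM (log2 fold change -0.44, SE 0.17, adjusted p = 0.0418), and 8 of 10 alternatives gave an adjusted p above the threshold, up to 0.14. Fcer1g, Tyrobp and Aif1 overlapped between the stages, with log2 fold changes of 0.14, -0.24 and -0.02 (adjusted p = 0.480, 0.310 and 0.960).

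**Figure D5:**
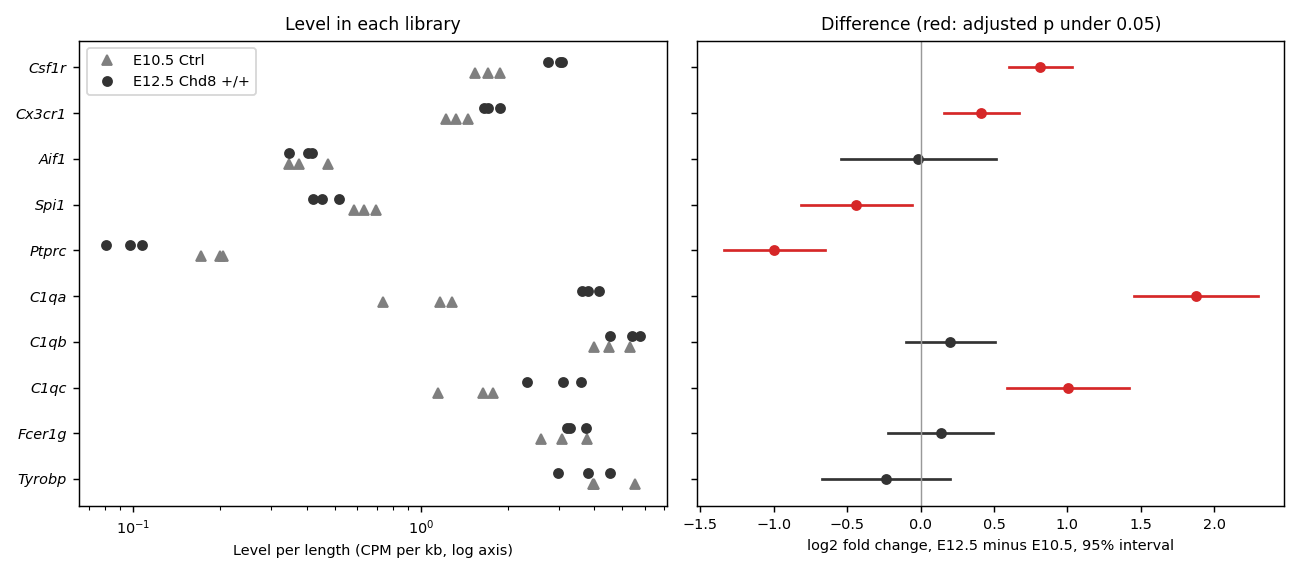
Left, level per length (CPM per kb, log axis) of the 10 genes in the 3 Chd8 +/+ libraries of E12.5 and the 3 Ctrl libraries of E10.5; right, log2 fold change of E12.5 minus E10.5 with 95% intervals (edgeR), red where the adjusted p was under 0.05. C1qa, C1qc, Csf1r and Cx3cr1 lie above 0 and Ptprc and Spi1 below.

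Other genes of these cells were grouped by cell type and role. First among them are the ligands of the 2 receptors. Csf1 had 9.49 to 10.7 CPM in Chd8 +/+ and Cx3cl1 12.2 to 14.9 CPM, while Il34 rested on at most 17 reads in a library and was not tested at E10.5. None of the 3 was called in a comparison that tested it, and Cx3cl1 in cKO had 16.8, 15.4 and 18.1 CPM against 14.1, 13.7 and 14.6 in Ctrl (log2 fold change 0.25, SE 0.09, adjusted p = 0.0869).

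Of 13 microglia identity genes, the sialic acid receptor Siglech was called lower in Chd8 neo/neo (log2 fold change -1.51, SE 0.35, adjusted p = 0.0206) and in Chd8 neo/- (log2 fold change -1.23, SE 0.34, adjusted p = 0.0340). It was the 1 gene of 13 called in each, beside 8.16% and 11.5% of all genes. It had 0.471, 0.617 and 0.576 CPM in Chd8 +/+, 0.445, 0.160 and 0.274 in Chd8 +/-, 0.166, 0.249 and 0.151 in Chd8 neo/neo and 0.152, 0.233 and 0.316 in Chd8 neo/-, on 2 to 27 reads in a library. The call was kept in 7 of 10 alternatives with an adjusted p for Chd8 neo/neo and in 4 of 10 for Chd8 neo/-, and leaving out 1 of several libraries ended it (adjusted p up to 0.0739 and 0.129). Of 18 pan-leukocyte and myeloid genes only the lysosomal Laptm5 was called in the same 2 genotypes, lower in both, beside the same shares of all genes. Its level was 11.4, 11.95 and 11.1 CPM in Chd8 +/+, 10.2, 8.95 and 9.26 in Chd8 +/-, 7.59, 8.36 and 8.98 in Chd8 neo/neo and 8.28, 9.30 and 9.48 in Chd8 neo/-, and none of the mutant libraries reached the lowest of Chd8 +/+. The difference was -0.47 in Chd8 neo/neo (adjusted p = 0.00703), called in 11 of 11 alternatives, and -0.35 in Chd8 neo/- (adjusted p = 0.0182), called in 9 of 11. In Chd8 +/- it was -0.28 (adjusted p = 0.624).

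No other identity gene was called against Chd8 +/+. P2ry12, the purinergic receptor that marks resting microglia, had 1.81, 2.21 and 2.63 CPM in Chd8 +/+ and 1.16, 2.07 and 1.99 in Chd8 neo/neo (log2 fold change -0.33, SE 0.25, adjusted p = 0.448), and the integrin Itgam 1.26, 1.28 and 1.195 and 0.830, 0.929 and 1.13 (log2 fold change -0.36, SE 0.18, adjusted p = 0.218). Slc2a5, a fructose transporter, was called lower in Chd8 neo/- against Chd8 +/- (log2 fold change -0.59, SE 0.15, adjusted p = 0.0385), which 5 of 11 alternatives kept. It was the 1 identity gene of 13 called there, beside 5.43% of all genes. Over the identity list the median log2 fold change was -0.20 for neo/neo and -0.14 for neo/- against Chd8 +/+, and over the pan-leukocyte list -0.20 and -0.13. Sall1, the most abundant gene of the identity list at a mean of 143 CPM, is known from neural and kidney progenitors too, and none of the myeloid transcription factors tested, 9 of 10 at E12.5 and 10 of 10 at E10.5, was called between genotypes.

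Border-associated macrophages, which lie in the meninges and around vessels, are marked by Mrc1, Lyve1 and Pf4 among others. Lyve1, which endothelium of lymph vessels also carries, was called higher in Chd8 neo/- at 5.82, 5.14 and 5.77 CPM against 4.54, 3.01 and 3.5002 in Chd8 +/+ (log2 fold change 0.59, SE 0.17, adjusted p = 0.0339), kept in 5 of 11 alternatives. It was the 1 gene called of 8 in the list that were tested, beside 11.5% of all genes. Stab1, a scavenger receptor, rose in cKO from 24.9, 32.6 and 34.2 to 39.8, 43.1 and 47.8 CPM (log2 fold change 0.51, SE 0.12, adjusted p = 0.0284), while Pf4, which platelets also carry, fell from 7.41, 8.35 and 9.93 to 4.89, 6.01 and 5.89 CPM (log2 fold change -0.61, SE 0.13, adjusted p = 0.0153). Without cKO replicate 2 neither was called (adjusted p = 0.0999 and 0.0523), and Stab1 was also lost without cKO replicate 3 and Pf4 without Ctrl replicate 3 (adjusted p = 0.0887 and 0.0642). Of 8 genes of the list tested in cKO, Stab1 was the 1 called higher and Pf4 the 1 called lower, beside 11.4% of all genes. Of 7 megakaryocyte and platelet genes, which include Pf4, all 7 were below 0 in cKO (median log2 fold change -0.51). Pf4 was the 1 gene of that list called, beside 11.4% of all genes. In cKO the identity gene Tmem119, which bone-forming cells also express, rose to 20.2, 18.2 and 19.01 CPM from 14.3, 14.4 and 13.1 in Ctrl (log2 fold change 0.46, SE 0.08, adjusted p = 0.00661). It was the 1 gene called of 12 identity genes tested, beside 11.4% of all genes. Tmem119 was also high in Chd8 +/- replicate 2, at 8.97 CPM against 2.33 and 4.34 CPM in its group, the library with the highest meningeal and mesenchymal sum. Which cells carried Tmem119 was not tested.

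Among genes of apoptotic cell recognition and engulfment, many of which neural cells express, Elmo1 was called lower in Chd8 neo/neo (-0.37, adjusted p = 0.0140) and Chd8 neo/- (-0.26, adjusted p = 0.0476) against Chd8 +/+, lower in Chd8 neo/neo against Chd8 +/- (-0.30, adjusted p = 0.0447), and higher in cKO (0.57, adjusted p = 0.00409). Mfge8, a bridge between phosphatidylserine and integrins, was higher in Chd8 neo/- (0.26, adjusted p = 0.00410) and in cKO (0.49, adjusted p = 0.00552), and against Chd8 +/- it was higher in Chd8 neo/- as well (0.23, adjusted p = 0.0158). These Elmo1 calls were kept in 7, 6 and 5 of 11 alternatives at E12.5 and 10 of 10 in cKO. The Mfge8 call against Chd8 +/- was kept in 6 of 11. Lrp1 was lower in Chd8 neo/- (-0.25, adjusted p = 0.0364), kept in 6 of 11 (adjusted p up to 0.138). Of the 13 genes of this list, 1 was called in Chd8 neo/neo against Chd8 +/+, beside 8.16% of all genes. In Chd8 neo/- 1 was called higher and 2 lower, beside 11.5%, and in cKO 2 were called, beside 11.4%. Against Chd8 +/-, 1 was called in Chd8 neo/neo beside 5.28% and 1 in Chd8 neo/- beside 5.43%. Of the activation-associated list Lpl was lower in both hypomorphs (-0.20 and -0.23, adjusted p = 0.0243 and 0.00866, kept in 7 and 11 of 11) and Igf1 was higher in cKO (0.54, adjusted p = 0.00161). Each was the 1 gene of 9 tested that was called in its comparison, beside the same 8.16%, 11.5% and 11.4% of all genes. Igf1 was also high in Chd8 +/- replicate 2, at 21.1 CPM against 7.82 and 9.96 CPM in its group. That library had the highest meningeal and mesenchymal sum. Which cells carried Igf1 was not tested. Among the ITAM partners and kinases Siglech was the 1 gene called between genotypes, and of the complement genes outside C1q none was. C1rb and C4b, at 3 reads or fewer in every library, were at the floor.

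Between stages the counts of these lists stand beside the 67.5% of all genes that were called. Of the lists given in this paragraph, the pan-leukocyte, ITAM and complement lists did not reach that share. The 10 genes themselves, with 6 called, did not reach it either. Of the identity genes 8 of 13 were called higher at E12.5 and 2 lower, among them P2ry12 at 1.96 (adjusted p = 3.01e-05), Gpr34 at 1.45 (adjusted p = 0.000997), Fcrls at 1.66 (adjusted p = 5.69e-05), Trem2 at 0.63 (adjusted p = 0.0233), Crybb1 at 4.21, P2ry13 at 0.99, Siglech at 1.198 and Sall1 at 1.97 higher, and Tmem119 at -1.92 lower. The median of that list was 0.99, against -0.0080 over all genes. Of the pan-leukocyte genes 3 of 18 were higher (Laptm5, Coro1a and Lcp1) and 6 were lower, among them the integrins Itgb2 at -0.91 and Itgam at -0.49 and the cytokine receptor chain Csf2rb at -2.79, with Vav1, Cyba and Cd14. Of 10 myeloid transcription factors 3 were higher, among them Maf at 0.24 and Bach2 at 2.84, and 5 were lower, Runx1 at -0.69, Irf8 at -0.70, Cebpa at -0.59, Cebpb at -2.25 and Ikzf1 at -0.98. Of 9 border-associated macrophage genes tested, Lyve1 at 3.65, Ms4a7 at 3.19, Mrc1 at 0.85, F13a1 at 0.81 and Stab1 at 0.52 were higher and Cbr2 at -2.75, Dab2 at -0.94 and Pf4 at -0.76 lower. Of 11 ITAM partners and kinases tested 2 were higher (Trem2 and Siglech) and 3 lower, Lyn at -0.34, Btk at -1.02 and the phospholipase Plcg2 at -1.88. Of 13 complement genes tested 6 were higher, among them C3 at 1.99, C5ar1 at 1.30, Cd93 at 0.97, C2 at 0.59 and Cfp at 0.44, and 2 were lower, Hc at -0.92 and Cd59a at -0.57.

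To find genes that varied with the 10, the mean of their standardised log2 levels was compared with every other tested gene over the 12 E12.5 libraries, as a description. Itgam had the highest Pearson r, 0.89, followed by Gpr180 (0.86), Gm13713 (0.84), Fam129b (0.84), Pnpla1 (0.83), C130074G19Rik (0.83), Cebpd (0.82), Gm11377 (0.82), Capns1 (0.82) and Apoe (0.82). Over the 6 E10.5 libraries the same genes had r from -0.23 for Gm11377 to 0.89 for Capns1, and Itgam had -0.17. The libraries share genotypes and scaling, and the 10 are those of highest r among all genes tested, so these values are a description only. Within the 10, the r of a gene with the mean of the other nine ran at E12.5 from 0.046 for Aif1 to 0.78 for C1qa. Over the 6 E10.5 libraries it ran from -0.77 for Aif1 and -0.37 for Spi1 to 0.91 for C1qc.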

How the data were processed

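RNA-seq was made by the authors from embryonic forebrain with a strand-marking kit. According to the submitters' processing notes, reads were checked with FastQC 0.11.2, trimmed with Trim Galore 0.4.1, aligned to mm10 with TopHat2 2.1.0 and counted per gene with featureCounts 1.5.0 on GRCm38.p4. The values are raw counts per gene as deposited by the authors, for 2 sequencing runs per library. The counting command in the E12.5 table sets no strand option, and none for reads that overlap several genes, so reads over exons shared by genes on opposite strands are left uncounted there.

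Runs were summed per library, and 46005 of 46603 gene identifiers matched a symbol. Genes were kept with filterByExpr and scaled by TMM, and edgeR 4.0.16 (limma 3.58.1, R 4.3.3) fitted a robust quasi-likelihood test with Benjamini-Hochberg adjustment over all genes tested, called at an adjusted p under 0.05. The E12.5 genotypes were fitted together, E10.5 apart, and the stages on a joint scale. CPM used TMM factors over all 18 libraries, and log2 CPM a prior count of 2. A gene with at most 3 counts in every library was at the floor. Whether a replicate number pairs libraries was checked by correlating deviations from group means. Only for Chd8 neo/neo and Chd8 +/- were all 3 correlations over 0.1 (0.108, 0.195 and 0.198).

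Alternatives were RLE scaling, no filter, DESeq2 1.42.0, the replicate block, the 6 libraries compared alone, and leaving out each replicate. The code was tested on simulated data. All 10 genes were named. The rule for other lists named each gene called, otherwise up to 4 of the most abundant, and those at the floor. The text departs from it by naming few of the abundant genes and by giving lists of other cell types by counts between stages. Some genes of these lists are not reported here. The genes and lists were chosen with earlier results of these data known. Promoters came from RefSeq on GRCm38.p6.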

Additional observations from a re-analysis of the deposited data

How the results depend on the processing

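Over the 80 log2 fold changes of the 10 genes and 860 alternative values, 787 kept their direction and side of the threshold, 53 reversed, 10 lost and 10 gained a call. The largest size among those that reversed was 0.18. With 3 libraries a group, and 26 to 52 reads for Aif1, smaller differences lay below what these libraries could show.

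In Chd8 neo/neo against Chd8 +/+, 0 of the 10 genes were called, 1 without the filter (Cx3cr1), 2 with DESeq2 (Csf1r and Cx3cr1) and 0 to 3 when 1 library was left out. In Chd8 neo/neo against Chd8 +/- the number was 0, and 0 to 2 with a library left out, both gained without neo/neo replicate 3. That fit called 2100 of 19045 genes, against 5.28% in the main fit. In cKO it was 1, 2 with DESeq2, 2 with the replicate block, and 0 to 1 with a library left out. Of all genes, 11.4% were called in the main fit and 18.4% with DESeq2, which tested 9 of the 10. The replicate block called 2598 of 18435.

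Of all genes, 4 were called in Chd8 +/- against Chd8 +/+, 15 with DESeq2, 2 with the replicate block, 1 with the 6 libraries alone and 2 to 6 with a library left out. For Chd8 neo/neo against Chd8 +/+ 1534 became 430 with the 6 libraries alone and 435 to 2605 with a library left out. For Chd8 neo/- against Chd8 +/+ 2158 became 1015 to 1539. For Chd8 neo/neo against Chd8 +/- 994 became 1786 with DESeq2, 572 with the replicate block, 42 with the 6 libraries alone and 23 to 2100 with a library left out. For Chd8 neo/- against Chd8 +/- 1021 became 1700 with DESeq2 and 244 to 694, and for Chd8 neo/- against Chd8 neo/neo 3 became 9 without the filter, 27 with DESeq2, 1 with the 6 libraries alone and 1 to 23. In cKO 2110 became 538 to 2483. The cause of these moves was not tested beyond the loss of libraries. The replicate block changed no call of the 10 genes other than Csf1r in cKO and Spi1 between stages.

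Directions turned in these log2 fold changes near 0. Without the filter Tyrobp was -0.00069 in Chd8 neo/neo against Chd8 +/+ and Aif1 0.0027 between stages. C1qa in Chd8 neo/- against Chd8 +/+ was 5.6e-05 with the block and 0.00017 with the 6 libraries alone. C1qb in Chd8 neo/neo against Chd8 +/- was -0.0061 with RLE, -0.0098 without the filter, -0.0069 with DESeq2 and -0.0056 with the 6 libraries alone. Values that turned when a library was left out are given as ranges, and the cause was not tested. In Chd8 +/- against Chd8 +/+ they ran from -0.13 to 0.053 for C1qb. In Chd8 neo/neo against Chd8 +/+ they ran from -0.13 to 0.14 for Spi1, from -0.15 to 0.056 for C1qb, from -0.18 to 0.17 for Tyrobp. In Chd8 neo/- against Chd8 +/+ they ran from -0.097 to 0.13 for Spi1, from -0.11 to 0.12 for Ptprc, from -0.10 to 0.098 for C1qa, from -0.22 to 0.074 for C1qc, from -0.20 to 0.12 for Tyrobp. In Chd8 neo/neo against Chd8 +/- they ran from -0.096 to 0.11 for Aif1, from -0.31 to 0.036 for C1qa, from -0.12 to 0.096 for C1qb, from -0.0062 to 0.30 for Tyrobp. In Chd8 neo/- against Chd8 +/- they ran from -0.036 to 0.13 for Csf1r, from -0.075 to 0.28 for Aif1, from -0.21 to 0.078 for Fcer1g, from -0.030 to 0.30 for Tyrobp. In Chd8 neo/- against Chd8 neo/neo they ran from -0.094 to 0.27 for Aif1, from -0.15 to 0.15 for Spi1, from -0.063 to 0.23 for Fcer1g, from -0.21 to 0.14 for Tyrobp. In cKO against Ctrl they ran from -0.17 to 0.023 for C1qb, from -0.0018 to 0.27 for C1qc, from -0.24 to 0.011 for Tyrobp. In the stage comparison they ran from -0.095 to 0.13 for Aif1.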

Other observations

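Blood cells other than macrophages were also followed. In Chd8 neo/- 5 of 12 erythroid genes were called higher than in Chd8 +/+ (edgeR), beside 11.5% of all genes called in either direction. Among the 5 were the embryonic globins Hba-x at 0.94 and Hbb-bh1 at 1.61 log2, the membrane transporter Slc4a1 at 1.04 and the transcription factor Klf1 at 1.13. Each was kept in 3 to 5 of 11 alternatives. The erythroid sum was 4686 to 7287 CPM in Chd8 neo/- and 3342 to 4076 CPM in Chd8 +/+. Of 7 megakaryocyte and platelet genes none was called at E12.5, with sums of 21.2 to 26.1 CPM in Chd8 +/+, 14.5 to 20.9 in Chd8 +/-, 14.9 to 18.1 in Chd8 neo/neo and 16.5 to 22.8 in Chd8 neo/-, the last overlapping Chd8 +/+. Of the monocyte and neutrophil list 8 of 12 genes were tested at E12.5 and none was called, and Ly6c2, Elane and Ly6g had at most 2 reads in a library. Of the lymphoid list 4 of 11 were tested and none was called, with Cd3e, Cd3g and Nkg7 at the floor. Of the mast cell list 1 of 6 was tested and not called, with Mcpt4, Fcer1a, Ms4a2 and Tpsb2 at the floor.

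Vessel genes differed in some comparisons. Against Chd8 +/-, 4 of 10 endothelial genes were called higher in Chd8 neo/-, beside 5.43% of all genes called in either direction. These were Kdr at 0.23, Tie1 at 0.26, Esam at 0.26 and Egfl7 at 0.31, kept in 10, 8, 5 and 7 of 11 alternatives. Egfl7 was also called higher in Chd8 neo/neo than in Chd8 +/- at 0.28, kept in 5 of 11, and not with the replicate block (adjusted p = 0.0602). It was the 1 gene of 10 called there, beside 5.28% of all genes. Set against Chd8 +/+, 0 of the 10 endothelial genes were called in Chd8 neo/- or in Chd8 +/-. All 10 lay above 0 in Chd8 neo/- (median log2 fold change 0.099) and below 0 in Chd8 +/- (median -0.14). Against Chd8 +/+, Kdr was lower in Chd8 neo/neo at -0.17, as was the mural gene Abcc9 at -0.39, kept in 6 and 11 of 11. They were 1 of 10 endothelial and 1 of 7 mural genes, beside 8.16% of all genes. In the neural list Dcx, a marker of young neurons, was lower against Chd8 +/+ in Chd8 neo/neo (-0.42) and Chd8 neo/- (-0.34) and against Chd8 +/- in both (-0.42 and -0.34), kept in 11, 8, 7 and 5 of 11. The progenitor genes Sox2 (0.29) and Pax6 (0.19) were higher in Chd8 neo/neo than in Chd8 +/+, each kept in 7 of 11. Sox2 was also called higher there than in Chd8 +/- (0.26), kept in 4 of 11 and not with the replicate block (adjusted p = 0.0722). Between stages, genes called higher and lower at E12.5 numbered 4 and 4 of 12 erythroid, 1 and 4 of 7 megakaryocyte and platelet, 4 and 2 of 10 endothelial, 5 and 1 of 7 mural, 0 and 4 of 9 activation-associated, 2 and 2 of 6 monocyte and neutrophil, 0 and 2 of 4 lymphoid, and 1 and 0 of 1 mast cell genes tested.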
